A study of Mus musculus with 12 samples.

Results

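The genes described here encode proteins of epithelial cell junctions and were taken by symbol from a list: Ocln, Marveld2, Cldn3, Cldn4, Cldn7, F11r, Tjp1, Cdh1 and Epcam. They are 9 of the 55291 symbols counted. Expression was measured by low-input RNA sequencing in 12 mouse libraries, with 3 libraries in each of 4 groups, a control group and a leukaemia group from marrow and the same from lung. All mice were of the VECadCre-tdTomato line, in which the promoter of the VE-cadherin gene drives Cre recombinase and Cre switches on a red reporter, so that a reporter signal records the past as well as the present use of that promoter. According to the labels each library held Vecad+ endothelial cells. The AML groups came from recipients of transplanted cells of an acute myeloid leukaemia (AML) that carried the genotype Trp53(R172H/delta), a point-mutant allele of this tumour suppressor over a deletion. Control mice were labelled normal and had received no transplant. Age, sex and the time from transplant to collection were not given in the sources used here, nor was the gate with which cells were taken. Whether the libraries of a group come from different animals is not stated, and p-values refer to the variation among these libraries, which may be technical.

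Tight junctions are belts of membrane strands near the top of epithelial cells that limit what passes between neighbours. Claudins (Cldn3, Cldn4, Cldn7) build the strands and set which ions cross, occludin (Ocln) sits in them, and tricellulin (Marveld2), a relative of occludin, closes the corners where cells meet. F11r encodes junctional adhesion molecule A, and Tjp1 encodes ZO-1, the scaffold that ties strands to actin. E-cadherin (Cdh1) holds epithelial cells together in the adherens junctions below, and Epcam is an epithelial adhesion protein that binds claudins. Endothelium builds its own junctions mainly from VE-cadherin (Cdh5) and claudin-5 and shares Tjp1, F11r and some Ocln with epithelium, whereas Cdh1, Cldn3, Cldn4, Cldn7 and Epcam are best known from epithelia such as the alveolar lining of the lung.

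Ocln and Marveld2, the only members called higher in marrow AML, are neighbours on chromosome 13. They were 2 of 9 members, beside 20.4% of all genes tested that were called higher. Both lie on the minus strand, with Ocln at 100496507 to 100552718 and Marveld2 at 100595957 to 100616971 (GENCODE, GRCm38), and 43.2 kb separate them. Cldn4 and Cldn3 form another pair of neighbours, 39.3 kb apart on chromosome 5 and on opposite strands, at 134945119 to 134946934 and 134986214 to 134987472. RefSeq promoters (GRCm38.p6, 250 bases before and 50 after a start site) were matched for 8 of the 9 genes, Cdh1 being the exception, and gave 11 windows. The windows of Ocln and Marveld2 are printed because both genes were called higher in marrow AML. Those of Cldn3 and Epcam are printed because these genes did not pass the test in the same libraries. Capitals mark the letters CAGGTG or, on the other strand, CACCTG, an E-box that zinc-finger repressors of epithelial genes such as Snai2 and Zeb1 are known to bind.
Ocln, chr13:100552449-100552748, minus strand: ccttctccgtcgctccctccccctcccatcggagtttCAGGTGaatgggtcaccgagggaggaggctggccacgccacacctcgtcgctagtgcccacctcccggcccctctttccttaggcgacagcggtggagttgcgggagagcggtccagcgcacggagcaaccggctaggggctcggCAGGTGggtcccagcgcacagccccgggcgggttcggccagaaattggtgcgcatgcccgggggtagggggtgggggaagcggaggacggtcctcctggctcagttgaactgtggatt
Marveld2, chr13:100616895-100617194, minus strand: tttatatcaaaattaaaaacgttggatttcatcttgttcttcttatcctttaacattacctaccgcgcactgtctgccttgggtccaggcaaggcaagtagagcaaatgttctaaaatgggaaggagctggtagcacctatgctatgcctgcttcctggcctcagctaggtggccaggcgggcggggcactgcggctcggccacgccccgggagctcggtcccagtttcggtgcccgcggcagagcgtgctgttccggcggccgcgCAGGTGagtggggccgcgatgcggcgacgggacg
Cldn3, chr5:134985964-134986263, plus strand: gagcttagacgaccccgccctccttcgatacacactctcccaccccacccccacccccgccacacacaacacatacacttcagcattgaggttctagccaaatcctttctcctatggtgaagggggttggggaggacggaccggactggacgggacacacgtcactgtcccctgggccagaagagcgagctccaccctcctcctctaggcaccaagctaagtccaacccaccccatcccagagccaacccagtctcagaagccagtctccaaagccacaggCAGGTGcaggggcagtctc
Epcam, chr17:87635729-87636028, plus strand: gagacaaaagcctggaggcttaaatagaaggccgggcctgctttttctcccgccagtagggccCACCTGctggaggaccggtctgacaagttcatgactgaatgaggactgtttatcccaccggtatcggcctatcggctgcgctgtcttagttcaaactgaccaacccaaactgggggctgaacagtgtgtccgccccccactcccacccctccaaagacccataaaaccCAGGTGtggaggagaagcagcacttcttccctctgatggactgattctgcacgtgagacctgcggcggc

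The E-box letters stood in 9 of the 11 windows, from 7 of the 8 genes matched, with Tjp1 lacking them. The windows of the Ocln start sites overlap, as do those of Marveld2, and share letters that are counted in each. They stood in 20.2% of the 32851 RefSeq promoter windows of the same length. In Ocln they began at bases -213 and -68 relative to the start site, in Marveld2 at base 17 and in Cldn3 at base 32. The grainyhead letters AACCNGTT, sought on both strands, were in none of the 11 windows and in 2.09% of all. An AP-1 motif, TGANTCA, was in 2 windows, those of Cldn4 and F11r, against 7.81% of all, and it overlapped no E-box. A match describes letters only, and no binding was measured.

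Total counts lay between 12.8 and 39.2 M per library, and 18147 genes passed the filter on low counts, all 9 members among them. With marrow libraries alone Cldn4 and Cldn7 would not have passed. Values are TMM-scaled CPM (the counts of a gene relative to the total of its library, with that total scaled by TMM). Intervals and floors cover counting error only. Markers of other cells stood beside the labelled cell type in every group, some of them far above Cdh5. In marrow the 10 erythroid markers summed to 16927 to 17683 CPM in controls and 1039 to 3688 CPM in AML. Cdh5, which defines the labelled cells, was at 3.54 to 6.53 CPM in marrow controls, 0.389 to 0.955 in marrow AML, 75.4 to 348 CPM in the control lungs and 3.90 to 31.8 CPM in the lungs with AML. Pecam1, another endothelial marker, was at 8.42 to 14.8 CPM in marrow controls and 0.712 to 7.85 CPM in marrow AML, and Ptprc, the leukocyte antigen CD45, at 2.52 to 7.87 and 0.130 to 5.003 CPM. Neither passed in marrow AML against control (edgeR, adjusted p = 0.139 and 0.219). Of 12 leukocyte markers 4 passed there as higher and 1 as lower, beside 20.4% and 23.5% of all genes. Sftpc, surfactant protein C of alveolar type II cells, was at 121588 to 198558 CPM in the 6 lung libraries. In marrow it was at 306, 1960 and 516 CPM in controls 1, 2 and 3, and at 247.5, 198 and 1144 CPM in AML 1, 2 and 3, so marrow control 2 and marrow AML 3 stood above the others of their groups. The 18 alveolar and airway markers summed to 554 to 2782 CPM in marrow controls and 319 to 1683 in marrow AML, and none of them was at 0 throughout either group. Because these are bulk samples, fewer cells of a type and less RNA per cell cannot be told apart.

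All members were higher in lung than in marrow, where Cldn4 and Cldn7 entered the test only through the lung libraries, in which they are high. The other 7 would have passed the filter on low counts with marrow libraries alone. Between the controls 64.2% of all genes tested were called, 34.7% higher in lung and 29.4% lower (edgeR quasi-likelihood F test, Benjamini-Hochberg adjusted p under 0.05 over all 18147 genes). No lung control library overlapped a marrow control library for any member, against 40.5% of all genes with lung entirely above marrow. Levels between genes were compared as CPM per kb of exon, and in lung controls Cldn3 stood highest at 455.5 ± 145 (SD, n = 3). Cdh1 with 132 ± 10.4 and F11r with 129.6 ± 15.3 came next and overlapped, followed by Epcam with 81.6 ± 12.7 and Cldn7 with 66.8 ± 23.7, which overlapped too. Ocln at 23.9 ± 3.95 and Tjp1 at 19.7 ± 12.8 lay within each other's spread, above Marveld2 at 5.80 ± 0.419 and Cldn4 at 0.731 ± 0.178 CPM per kb.

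In marrow controls the order was another. F11r and Cldn3 led with 4.19 ± 2.07 and 3.36 ± 3.52 CPM per kb (SD, n = 3), Tjp1 followed with 2.46 ± 0.865, and these did not differ beyond their spread. Cdh1 was at 0.851 ± 0.996, Epcam at 0.455 ± 0.439, Cldn7 at 0.369 ± 0.378, Ocln at 0.232 ± 0.0988 and Marveld2 at 0.0740 ± 0.0351, and Cldn4 had no count in any of the 3 libraries. F11r made up 32.7%, 20.2% and 63.1% of the summed level per kb of the 9 genes in marrow controls 1, 2 and 3, and Tjp1 made up 38.9%, 16.6% and 14.3%. In the 6 lung libraries F11r made up 10.3% to 18.4% and Tjp1 0.964% to 4.33%, while Cldn3 alone made up 42.3% to 61.4%.

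**Figure D1:**
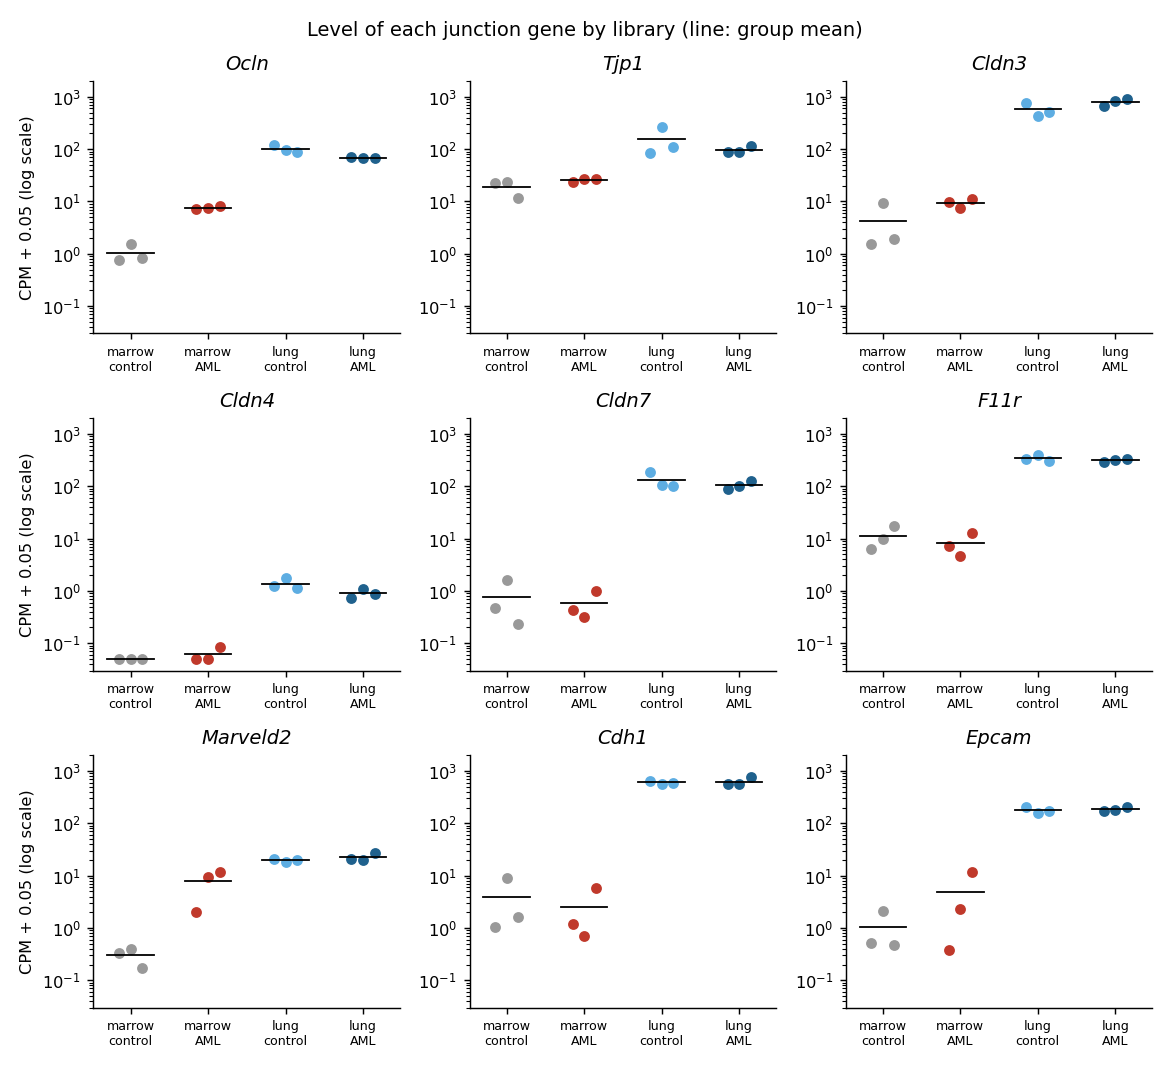
Level of each of the 9 junction genes in the 12 libraries, in CPM plus 0.05 on a log axis, with 1 point per library and a line at the mean of the 3 libraries of a group. All 9 panels have the 6 lung points above the 6 marrow points, and in Ocln and Marveld2 the 3 marrow AML points lie above the 3 marrow controls.

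**Figure D2:**
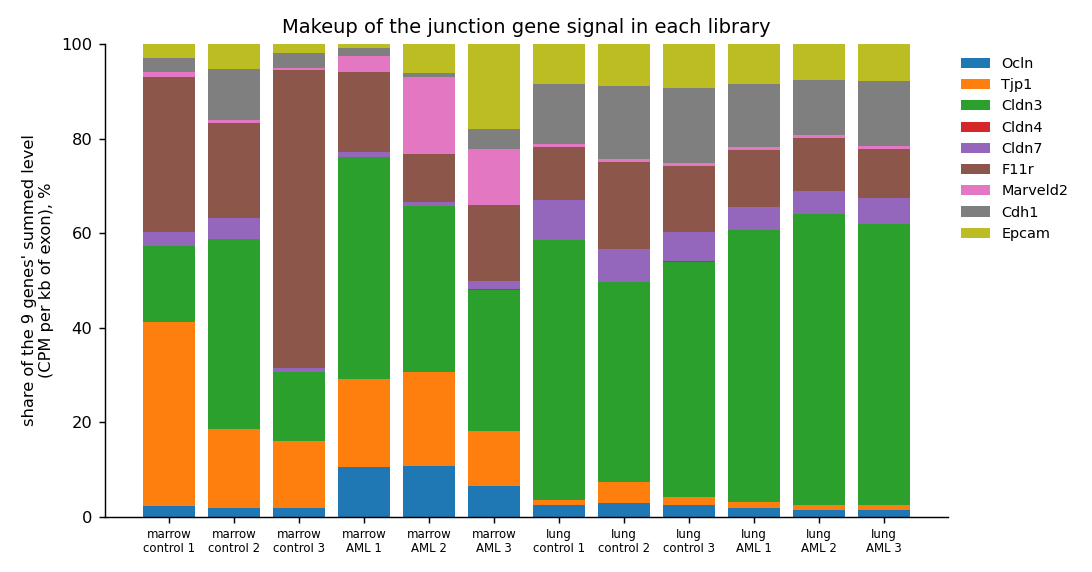
Share of each gene in the summed level of the 9 genes (percent of CPM per kb of exon, stacked to 100%), 1 bar per library. Cldn3 takes 42.3% to 61.4% of each lung bar, and Ocln with Marveld2 take more of the marrow AML bars than of the marrow control bars; Cldn4 is too low to be seen.

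Ocln, the occludin of the strands, was counted at 0.698, 1.46 and 0.779 CPM in marrow controls 1, 2 and 3 and at 7.19, 7.60 and 8.03 CPM in marrow AML 1, 2 and 3. The AML libraries lay close together and did not overlap the controls, as was the case, with AML above, for 20.4% of all genes tested. Ocln rose by a log2 fold change of 2.95 ± 0.26 (SE; edgeR quasi-likelihood F test, adjusted p = 2.34e-05), a ratio of means of 7.78. In lung it was at 119, 97.5 and 86.2 CPM in controls and at 69.7, 67.2 and 68.1 CPM in AML. The lung AML libraries all lay below the lung controls, as for 16.8% of all genes tested, but the log2 fold change of -0.56 ± 0.22 did not pass (edgeR, adjusted p = 0.223). DESeq2 (adjusted p = 0.0291) and limma-voom (adjusted p = 0.0145) passed it.

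Marveld2, the tricellulin of tricellular corners, moved further from a lower level. Marrow controls had 0.279, 0.352 and 0.120 CPM, from 6, 7 and 2 counts, and marrow AML had 1.94, 9.28 and 11.9 CPM. The groups did not overlap, as for 20.4% of all genes tested with AML above, and AML 1 stood well below AML 2 and AML 3. The log2 fold change was 4.90 ± 0.65 (SE; edgeR, adjusted p = 0.000204), a ratio of means of 30.8 that rests on 15 counts over the 3 controls. In lung, Marveld2 was at 21.0, 18.2 and 19.7 CPM in controls and 21.2, 20.3 and 26.6 CPM in AML, which overlap (log2 fold change 0.21 ± 0.51, edgeR adjusted p = 0.933). By group means the marrow AML level of Marveld2 was nearer to the lung level than that of any other member. The lung AML mean was 2.94 times the marrow AML mean, against 3.69 times for Tjp1, 8.99 times for Ocln and 38.3 to 250.8 times for F11r, Epcam, Cldn3, Cldn7 and Cdh1. The order of Marveld2 and Tjp1 is not settled, with log2 fold changes of 1.55 ± 0.52 and 1.88 ± 0.40 (SE). Marrow AML 1 alone, at 1.94 CPM, lay further from lung.

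Ocln and Marveld2 were 2 of 9 members called in marrow AML, both higher, and none was called lower; of all genes tested 43.8% were called there, 20.4% higher and 23.5% lower. The median log2 fold change of the 9 members was 1.15, or 0.79 with Cldn4 left out because both groups were at or under its floor of 3 counts, beside -0.11 over all genes tested. It ranged from 0.39 without marrow AML 3 to 1.87 without marrow control 2, and was 0.34 with limma-voom. Scaling by library totals alone moved the median of all genes to 0.16 and the split of calls from 3694 higher and 4263 lower to 4651 higher and 2943 lower. Relative to the median of all genes, the main log2 fold changes were 3.06 for Ocln and 5.01 for Marveld2. Without marrow control 2 and marrow AML 3 together, an alternative chosen after the data were seen, 3 members were called higher, Ocln (3.32), Marveld2 (4.74) and Cldn3 (2.35), and the median of the 9 was 0.57.

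**Figure D3:**
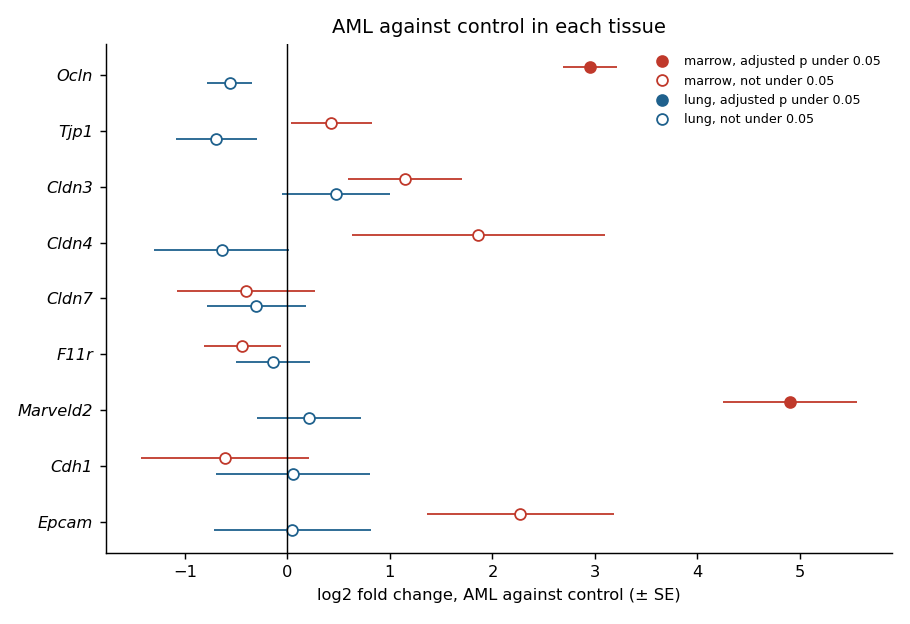
Log2 fold change of AML against control (x axis) with its standard error for each of the 9 genes, marrow in red and lung in blue, filled where the adjusted p was under 0.05. Ocln and Marveld2 in marrow are the filled points; the Cldn4 point in marrow is a fitted value from a single count and gives no fold.

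The claudins did not move as a block in marrow. Cldn3, a barrier claudin, was at 1.49, 9.35 and 1.86 CPM in marrow controls and at 9.65, 7.45 and 11.1 CPM in marrow AML. Controls 1 and 3 lay below the AML libraries and control 2 lay among them, and the log2 fold change of 1.15 ± 0.56 did not pass (edgeR, adjusted p = 0.117). Without marrow control 2, the control with the most Sftpc, it was 2.49 (edgeR, adjusted p = 0.000544), and with library totals alone 1.49 (adjusted p = 0.0457). Cldn7 was at 0.419, 1.56 and 0.180 CPM in marrow controls and 0.389, 0.267 and 0.942 CPM in marrow AML, which overlap (log2 fold change -0.40 ± 0.67, edgeR adjusted p = 0.659). Cldn4, which encodes a receptor of a clostridial toxin as well as a strand protein, had 0 counts in 5 marrow libraries and 1 count in marrow AML 3, so no fold is given.

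In lung the claudins were abundant, apart from Cldn4. Cldn3 was at 776, 423 and 521 CPM in lung controls and at 670.3, 818.5 and 901 CPM in lung AML (log2 fold change 0.47 ± 0.53, edgeR adjusted p = 0.780). Cldn7 was at 183, 108 and 99.7 CPM against 87.1, 102 and 128 CPM (log2 fold change -0.30 ± 0.48). Cldn4 was at 1.22, 1.69 and 1.07 CPM in controls and 0.691, 1.03 and 0.832 CPM in AML, with all AML libraries below all controls as for 16.8% of genes tested (log2 fold change -0.64 ± 0.66, edgeR adjusted p = 0.756). Against 0 counts in marrow controls, its 101 counts in lung controls were at least 25.7-fold higher, with a floor of 3 counts over the group. With 1 count in marrow AML and 69 in lung AML the ratio was 58 (95% counting interval 10.1 to 2324).

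The adhesion molecule F11r and the scaffold Tjp1, both also made by endothelium, had the smallest ratios of lung to marrow in controls among the 8 members with a ratio, Cldn4 having only a lower bound. F11r was at 6.38, 9.90 and 17.2 CPM in marrow controls and 7.32, 4.62 and 12.6 CPM in marrow AML, which overlap (log2 fold change -0.44 ± 0.37, edgeR adjusted p = 0.368). In lung it was at 337, 389 and 309 CPM against 295, 317 and 329 CPM (log2 fold change -0.14 ± 0.36). Tjp1 was at 22.2, 23.9 and 11.4 CPM in marrow controls and 23.8, 26.6 and 27.0 CPM in marrow AML (log2 fold change 0.43 ± 0.40, edgeR adjusted p = 0.406). Its lung values were 84.4, 269 and 108 CPM in controls and 86.2, 86.3 and 113 CPM in AML. Lung control 2, the library with the highest Cdh5 (348 CPM), held the highest Tjp1 and F11r of the lung libraries. The lung control mean was 8.01 times the marrow control mean for Tjp1 and 30.9 times for F11r, against 78.4 times for Marveld2, 103 times for Ocln and 136 to 181 times for Cldn3, Cdh1, Epcam and Cldn7.

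Neither E-cadherin nor Epcam passed the test in marrow AML. Cdh1, which encodes E-cadherin, was at 0.977, 9.15 and 1.56 CPM in marrow controls and 1.17, 0.649 and 5.69 CPM in marrow AML, highest in the same libraries as Sftpc (log2 fold change -0.61 ± 0.82, edgeR adjusted p = 0.577). Epcam was at 0.465, 2.11 and 0.419 CPM in marrow controls and 0.324, 2.29 and 11.7 CPM in marrow AML. Its log2 fold change of 2.27 ± 0.92 missed the threshold (edgeR, adjusted p = 0.0645). It was 0.48 without marrow AML 3 (adjusted p = 0.605), and it passed without marrow control 2 (3.44, adjusted p = 0.0380), without AML 1 (2.80, adjusted p = 0.00827) and without AML 2 (2.62, adjusted p = 0.0490). In lung, Cdh1 was at 654, 559 and 600.5 CPM in controls and 558, 563 and 760.3 CPM in AML, and Epcam was at 209.7, 155.5 and 172 CPM against 172, 177 and 207 CPM. Both pairs overlapped, with log2 fold changes of 0.05 ± 0.75 and 0.05 ± 0.77.

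Since marrow libraries held Sftpc, each member's counts were set against those of Sftpc, a measure chosen after the values were seen and given with no test. The ratio of a member to Sftpc over the 6 lung libraries served as 1. Cdh1 stood at 0.786 to 1.21 of the lung ratio in the 3 marrow controls and at 0.854 to 1.29 in the 3 marrow AML libraries, so that its marrow counts were in nearly the proportion to Sftpc seen in lung. Cldn7, from 3 to 31 counts per library, stood at 0.483 to 2.18 over the 6 marrow libraries. Cldn3 was at 1.14, 1.12 and 0.845 of the lung ratio in marrow controls 1, 2 and 3, and at 9.16, 8.84 and 2.29 in AML 1, 2 and 3. Epcam was at 1.34, 0.947 and 0.715 in the controls and at 1.15, 10.2 and 8.99 in AML, with AML 1, at 5 counts, among the controls.

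The members called higher in marrow AML stood far above the lung proportion in those libraries. Ocln was at 4.34, 1.42 and 2.87 times the lung ratio in marrow controls and at 55.3, 73.1 and 13.4 times in marrow AML 1, 2 and 3. Marveld2 was at 6.87, 1.35 and 1.75 times in controls and at 59.1, 353 and 78.5 times in AML. At the lung ratio 2.01, 2.72 and 17.2 Ocln counts would go with the Sftpc counts of marrow AML 1, 2 and 3, where 111, 199 and 230 were found. Ocln and Marveld2 were singled out for their rise where mean Sftpc did not rise, so higher ratios in AML follow from that choice. Tjp1 and F11r exceeded the lung proportion in both marrow groups, with 15.7 to 93.7 and 2.46 to 16.2 times in controls and 30.4 to 173 and 5.37 to 14.4 times in AML. Cell types other than alveolar cells also differed between the marrow groups. The 8 pericyte and smooth muscle markers summed to 196.5 to 665 CPM in controls and 2519 to 9078 CPM in AML, none at 0. Of these 7 of 8 were called higher, beside 20.4% of all genes called higher and 23.5% lower. The 10 erythroid markers summed to 16927 to 17683 CPM and 1039 to 3688 CPM, also none at 0, and 9 of the 10 were called lower. The 6 mesothelial markers, an epithelium-like lining of body cavities, summed to 0.233 to 1.71 CPM and 0.0764 to 4.43 CPM, with Calb2 at 0 in both groups and Wt1 at 0 in AML. None of the 4 mesothelial markers tested was called. The 10 marrow stroma and bone markers summed to 15460 to 21541 CPM and 13472 to 21243 CPM, with 4 called higher and 3 lower. The 12 leukocyte markers summed to 26.1 to 242 CPM and 55.0 to 174 CPM, with Cd3e at 0 in both groups. Of the leukocyte markers 4 were called higher and 1 lower. The part of alveolar cells and of these other cells in the changes of Ocln and Marveld2 was not tested.

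**Figure D4:**
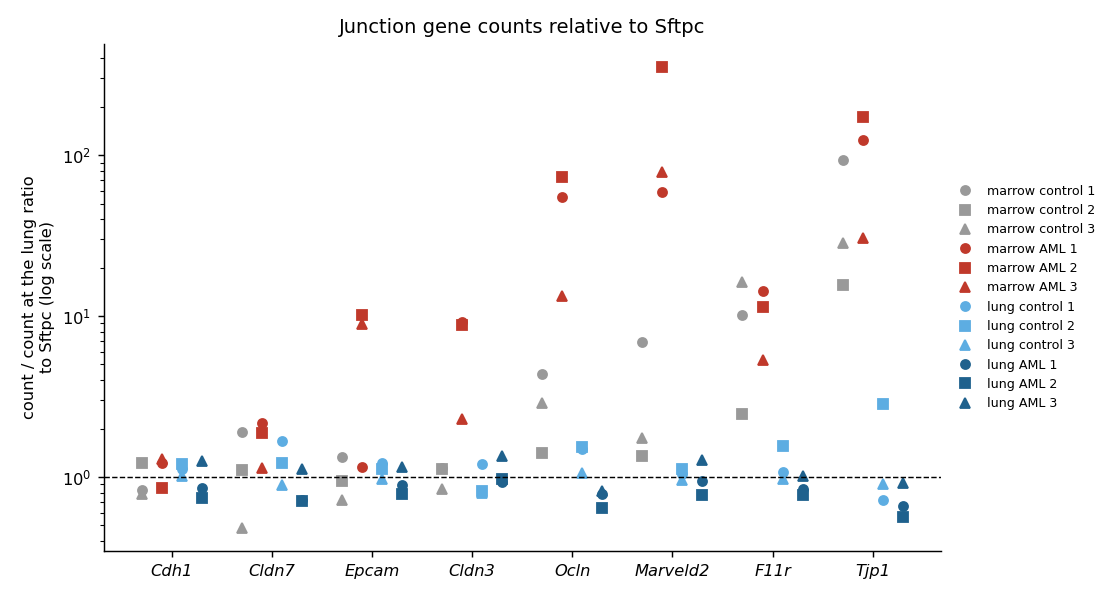
Counts of 8 members relative to Sftpc in each library, divided by the ratio pooled over the 6 lung libraries (log axis; dashed line at 1, the lung ratio); Cldn4, with 1 count in marrow, is not drawn. Cdh1 stays between 0.786 and 1.29 in the 6 marrow libraries, while marrow AML points of Marveld2 reach 353.

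The AML effect of Ocln and of Marveld2 differed between the tissues. The lung effect minus the marrow effect was -3.51 ± 0.34 for Ocln (log2; edgeR interaction, adjusted p = 0.000144) and -4.69 ± 0.81 for Marveld2 (adjusted p = 0.00178), 2 of 9 members where 30.7% of all genes tested were called, 16.1% higher and 14.6% lower. With library totals alone the calls over all genes were 1756 higher and 3494 lower. For the other members the difference did not pass, with Epcam at -2.22 ± 1.19 (adjusted p = 0.186), Tjp1 at -1.12 ± 0.56 (adjusted p = 0.155) and Cldn3 at -0.67 ± 0.76 (adjusted p = 0.545). Without marrow control 2 the difference for Cldn3 was -2.01 (edgeR, adjusted p = 0.00616). In lung AML itself none of the 9 members was called, where 2.33% of all genes were, 1.17% higher and 1.16% lower. Only Ocln had an unadjusted p under 0.05 there by edgeR, and DESeq2 and limma-voom each called 1 member, Ocln, as lower. Between the AML groups the 7 members that pass the filter on marrow libraries alone were all higher in lung than in marrow, as were Cldn4 and Cldn7, against 47.6% of all genes called, 25.2% higher and 22.4% lower (3386 higher and 5770 lower with library totals alone). Marveld2 was the closest call, with 1.55 ± 0.52 (edgeR, adjusted p = 0.0298), and it was lost when any 1 lung AML library was left out (edgeR, adjusted p = 0.057, 0.072 and 0.088 without AML 1, 2 and 3) and in 3 further alternatives, of which the highest adjusted p was 0.088 with only the compared libraries, so that it held in 10 of 16.

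Other junction genes were read from 8 lists that do not hold the 9 members. Cdh5, Cldn5 and Jam2 each stand in 2 of the lists. Of 27 tight junction strand and scaffold genes tested, 9 were higher and 2 lower in marrow AML, with a median log2 fold change of 1.02. Of all genes tested 20.4% were called higher and 23.5% lower there. Without marrow control 2 and marrow AML 3 the counts were again 9 and 2, but the median was 0.00. Leaving out marrow AML 3 alone gave 9 higher and 7 lower (median -0.40), leaving out marrow AML 2 gave 10 and 4 (median -0.12), and limma-voom gave 8 and 0 (median -0.05). Cldn1, a claudin of skin and other tight epithelia, rose from a mean of 3.60 to 40.7 CPM (log2 fold change 3.49 ± 0.62, edgeR adjusted p = 0.00103). Marveld1, a membrane protein with the MARVEL domain that occludin also has, rose from a mean of 44.5 to 323 CPM (2.86 ± 0.44, edgeR adjusted p = 0.000479). Jam3, a junctional adhesion molecule related to F11r, rose from 4.67 ± 1.17 to 41.1 ± 21.6 CPM (3.14, edgeR adjusted p = 0.00016), and Amotl2, an angiomotin that binds scaffold proteins, rose from 27.3 ± 3.07 to 90.1 ± 45.0 CPM (1.73, adjusted p = 0.00156). Cldn5, the claudin of endothelium, fell by 3.22 on the log2 scale (adjusted p = 0.0134), a call that limma-voom (0.593) and leaving out the same 2 libraries (0.103) did not make.

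Desmosomes are the spot junctions that anchor keratin filaments. The counts of the next 3 lists stand beside the same shares of all genes, 20.4% called higher and 23.5% lower. Of 9 desmosome genes tested, 4 were higher and 1 lower in marrow AML (median 0.73), and 2 and 1 without the 2 libraries rich in Sftpc (median -0.08). Without marrow AML 3 alone 3 were higher and 4 lower (median -0.51), and with limma-voom the median was -1.02. With the marrow libraries alone 5 genes passed the filter, of which 3 were higher and 0 lower (median 2.13). Perp, a desmosomal membrane protein and known target of p53, rose from 3.02 ± 1.28 to 94.4 ± 42.6 CPM (log2 fold change 4.96, edgeR adjusted p = 2.64e-05). Pkp3, a plakophilin plaque protein, rose from 0.244 ± 0.106 to 6.46 ± 1.52 CPM (4.71, adjusted p = 4.47e-05). Of 15 adherens junction genes, 4 were higher and 1 lower (median 0.36), and 2 and 0 without the 2 libraries. Afdn, the nectin partner afadin, rose from 6.65 ± 1.30 to 16.2 ± 1.47 CPM (1.28, adjusted p = 0.000308), while Cdh5 fell by 2.90 on the log2 scale (adjusted p = 0.0141; 0.508 with limma-voom and 0.10 without the 2 libraries). Of 13 polarity complex genes, 4 were higher and 1 lower (median 0.49), and 2 were higher without marrow control 1, 2 or 3, with Pard3, the scaffold of the apical PAR complex, rising from 8.38 ± 1.74 to 20.1 ± 4.06 CPM (1.26, adjusted p = 0.000831).

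Lists of epithelial identity genes were read beside the 20.4% of all genes called higher and the 23.5% called lower. Of 14 keratins and apical surface genes, 2 were higher and none lower in marrow AML (median -0.38). These were Spint2, a membrane protease inhibitor, at 28.8 ± 12.2 and 69.2 ± 8.06 CPM (1.27, edgeR adjusted p = 0.00294), and Prss8. Prss8 was at 0.337 ± 0.320 and 2.95 ± 2.45 CPM (3.13, edgeR adjusted p = 0.0103), a call held in 14 of 16 alternatives. Of 15 epithelial transcription and splicing regulators, 2 were higher and 2 lower (median -0.38). Only Ehf of the 2 lower regulators is described below, and the lowest log2 fold change of the list was -5.75. Both medians turned positive without marrow control 2 (1.37 for the keratin list and 0.93 for the regulators), and they were -2.05 and -2.30 without marrow AML 3. They were also positive with the marrow libraries alone, 0.57 over 8 genes of the keratin list and 1.09 over 5 regulators. The remaining genes of these lists were too low in marrow to pass the filter there. Grhl1, a grainyhead factor, rose from 0.154 ± 0.217 to 3.95 ± 0.811 CPM (4.63, adjusted p = 0.00155), and Ehf, an epithelial ETS factor, fell by 2.07 on the log2 scale, from 2.51 ± 1.19 to 0.564 ± 0.280 CPM (adjusted p = 0.00282; 0.206 with limma-voom). Grhl2, the grainyhead factor best known as an activator of Cdh1 and of claudins, was at 0.470 ± 0.478 and 0.101 ± 0.0906 CPM (log2 fold change -2.13 ± 0.86, adjusted p = 0.0655). Esrp1, an epithelial splicing regulator, had 8 counts over the 3 marrow controls and 10 over marrow AML. Esrp2, of the same list, rose from 0.735 ± 0.893 to 4.03 ± 1.95 CPM (2.41, edgeR adjusted p = 0.00976), a call held in 15 of 16 alternatives.

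Of 7 repressors of epithelial genes tested, 4 were higher and none lower in marrow AML (median 1.30), 3 and 0 without the 2 libraries, and 2 and 0 without marrow control 1. Their part in the levels of the members was not tested. Of all genes tested 20.4% were called higher and 23.5% lower in marrow AML. Snai2 rose from 17.8 ± 8.01 to 69.9 ± 20.0 CPM (log2 fold change 1.97, edgeR adjusted p = 0.00449) and Tcf4 from 42.5 ± 7.64 to 104 ± 24.1 CPM (1.30, edgeR adjusted p = 0.000933). Zeb1 was at 26.5 ± 7.61 and 29.7 ± 9.99 CPM (0.17 ± 0.34, adjusted p = 0.720). Of 12 endothelial junction and identity genes, 1 was higher and 5 lower (median -1.66), 0 and 4 without the 2 libraries, 1 and 3 without marrow AML 1, and 0 and 0 with limma-voom. Kdr, a receptor for vascular endothelial growth factor, fell by 3.56 on the log2 scale, from 19.8 ± 6.20 to 1.75 ± 1.42 CPM (adjusted p = 0.00186; 0.179 with limma-voom).

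**Figure D5:**
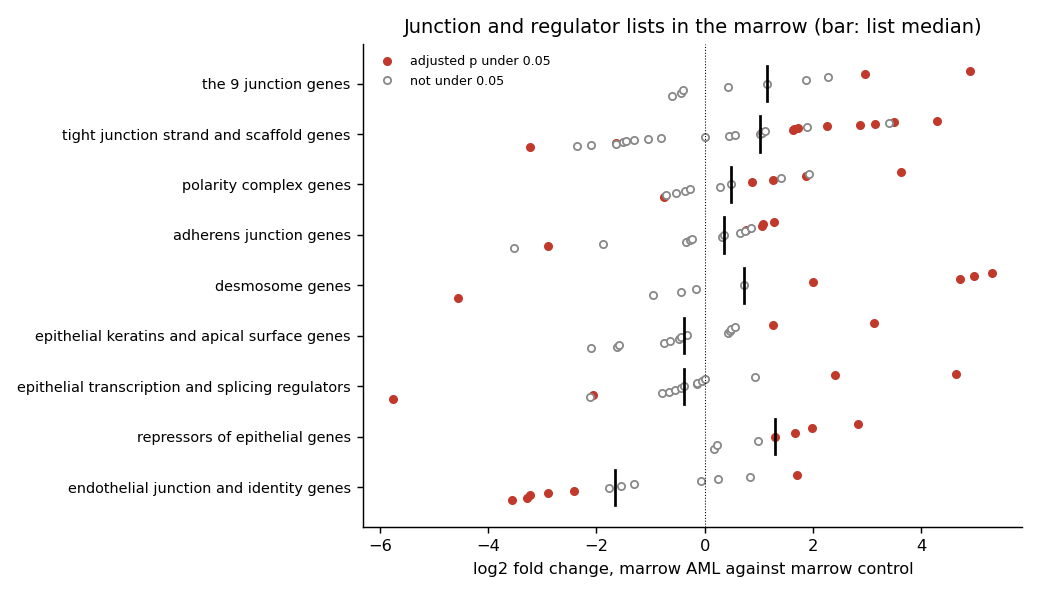
Log2 fold change of marrow AML against marrow control (x axis) for each tested gene of the 9 members and of 8 lists, red where the adjusted p was under 0.05, with a bar at each list's median. Medians range from -1.66 for endothelial genes to 1.30 for repressors of epithelial genes, beside -0.11 over all genes; the members' row includes Cldn4, whose value comes from a single count.

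Between lung and marrow controls all 12 endothelial genes were higher in lung (median 4.38), and so were most genes of the epithelial lists. Higher in lung were 23 of 27 tight junction genes (2 lower, median 4.43, or 4.05 with genes at 0 counts set to their bound), 7 of 9 desmosome genes, 11 of 15 adherens junction genes and 8 of 13 polarity genes. All 14 keratins and apical surface genes and 14 of 15 epithelial regulators were higher too, where 34.7% of all genes were. With marrow libraries alone 19 of 27 tight junction, 5 of 9 desmosome and 12 of 15 adherens junction genes pass the filter. So do 12 of 13 polarity genes, 8 of 14 keratins and apical surface genes and 5 of 15 regulators. The rest entered the test only through lung libraries, which favours a call of higher in lung for them. Examples are Lsr, the angulin that recruits tricellulin to cell corners, at 0.482 ± 0.428 and 52.4 ± 15.9 CPM (log2 fold change 6.72, edgeR adjusted p = 8.95e-06), and Grhl2 at 0.470 ± 0.478 and 26.5 ± 4.68 CPM (5.85, adjusted p = 4.10e-05). Repressors of epithelial genes were split, with 1 of 7 higher (Tcf4, 1.81, adjusted p = 4.36e-05) and 1 lower (Twist1, -5.01, adjusted p = 0.000190). In lung AML against lung control, where 2.33% of all genes were called, no gene of the tight junction, desmosome, keratin, regulator and repressor lists was called by edgeR, with 3, 0, 1, 1 and 2 genes at an unadjusted p under 0.05. Among 13 polarity genes 1 was higher, Lin7a, with 3 counts over the lung controls and 173 over lung AML. Its log2 fold change was 5.58 (edgeR adjusted p = 0.0431), a call held in 7 of 14 alternatives. Among 15 adherens junction genes 1 was lower, Cdh5. Of the endothelial list 5 of 12 genes were lower, Cdh5 again among them at 188 ± 143 and 15.9 ± 14.4 CPM (-3.57, edgeR adjusted p = 0.0325). That call held in 8 of 15 alternatives and was lost, among others, without lung control 2 (adjusted p = 0.125), lung control 3 (0.050), lung AML 1 (0.0992) or lung AML 3 (0.159).

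Genes whose log2 CPM ran most like each member were sought over the 12 libraries among 10234 genes that averaged 10 CPM or more. The libraries share a split into marrow and lung, which raises every such correlation, so values are descriptions. Closest to Cdh1 were Slc26a9, Cxcl15 and Hc (Pearson r of 0.999 each), genes of the lung lining and its secretions, and closest to Cldn7 were Ckmt1, Rasef and Pls1 (0.997 to 0.999). Ocln ran with Car8, Emp2 and Pisd (0.991 to 0.996), and Marveld2 with Ttc21b, Zfp623 and Pheta1 (0.991 to 0.994). Epcam ran with Bex2, Irx2 and Enpp5 (0.989 to 0.995), Cldn3 with Wwc1, Gal3st1 and Sfn (0.992 to 0.993), F11r with Igsf5, Arhgef38 and Urah (0.992 to 0.993) and Cldn4 with Hpcal1, Ppp1r13b and Lurap1l (0.986 to 0.988). Tjp1 ran with Itpr2, Ptprg and Dock9 (0.975 to 0.978). No gene was among the 3 closest of more than 1 member.

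The genes on either side of the chromosome 13 pair were not called higher in marrow AML. Gtf2h2, a subunit of a general transcription factor that lies beyond Ocln, was at 42.7 ± 5.41 and 29.9 ± 2.17 CPM (log2 fold change -0.51 ± 0.20, edgeR adjusted p = 0.0522). Rad17, a checkpoint gene that ends just beyond the start of Marveld2, fell by 1.10 on the log2 scale, from 54.6 ± 7.32 to 25.5 ± 6.40 CPM (adjusted p = 0.00147). Counting took no account of strand, and the annotation places only 40 bases of exon of another gene, the antisense Wbscr25, over exon of a member, Cldn3. Wbscr25 had 0 counts in the 6 marrow libraries.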

How the data were processed

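RNA of Vecad+ cells from bone marrow and lung was extracted as total RNA with a micro-column kit and made into libraries with SMART-seq v4 and ThruPLEX kits, per the labels' protocols. The submitters' processing notes name bcl2fastq, STAR and the mm10 genome. Versions, counter and annotation were not given in the sources used here. Files deposited by the authors give for each symbol in a library 1 raw count, unnormalized and counted without regard to strand per the deposited file names. Samples were grouped by their labels.

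One edgeR 4.0.16 model (limma 3.58.1, R 4.3.3) with 4 groups was fitted to all 12 libraries, with TMM scaling, a low-count filter (minimum count 10, minimum total 15), robust quasi-likelihood F tests and Benjamini-Hochberg adjustment over 18147 genes. Calls were made where the adjusted p was under 0.05. Library totals were 12.8 to 39.2 M counts. By these totals, before TMM scaling, a floor of 3 counts equals 0.0766 to 0.235 CPM. The 4 comparisons were AML against control in each tissue and lung against marrow in controls and in AML, besides the difference of the AML effects. Genes named from the lists were up to 4 called genes with the smallest p per list, plus Cdh5, Zeb1, Grhl2, Esrp1, Sftpc, Pecam1, Ptprc and Klf1. The neighbours of members on the chromosomes were named after their values were seen. The alternatives were DESeq2 1.42.0 and its size factors, library totals, limma-voom, other filters, a 1.5-fold test, fewer libraries and a replicate term. The fit was tested on simulated data. Members and lists were chosen with earlier results of these data known. Where no table entry was found, as for the promoter of Cdh1, no sequence is given.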

Additional observations from a re-analysis of the deposited data

Results flagged for a closer look

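The effect of AML on Ocln and on Marveld2 differed between lung and marrow by the test of the difference itself. For Ocln the lung effect minus the marrow effect was -3.51 on the log2 scale (edgeR interaction, adjusted p = 0.000144), with 3 of 3 marrow AML libraries above all marrow controls and 3 of 3 lung AML libraries below all lung controls, as for 20.4% and 16.8% of all genes tested. The lung change of Ocln alone did not pass (edgeR adjusted p = 0.223). For Marveld2 it was -4.69 (edgeR interaction, adjusted p = 0.00178), with 3 of 3 marrow AML libraries above all marrow controls and lung groups that overlapped. Over all genes tested 30.7% were called for the same difference.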

How the results depend on the processing

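In marrow AML, Ocln (log2 fold change 2.75 to 3.36) and Marveld2 (4.36 to 5.36) were called in 16 of 16 alternatives. With library totals alone 4 members were called higher, and 2 to 4 when 1 library was left out. Genes called in lung AML numbered 1632 with DESeq2, 2282 with limma-voom, 123 in the test against a 1.5-fold change, 1239 with the libraries of the compared groups alone, and 72 to 325 with 1 library left out (218 and 116 without lung control 1 or 2, 72, 248 and 83 without lung AML 1, 2 or 3), against 423; DESeq2 and limma-voom each called 1 member lower there. Correlations did not show a pairing of libraries by replicate number, and with 3 libraries a group they cannot exclude one. Same-numbered libraries of different groups correlated at -0.162 to 0.183 and matched best in 14 of 36 cases. With a replicate block 7253 genes were called in marrow AML, 331 in lung AML and 4924 for the difference, and no call of a member moved; log2 fold changes in lung AML were -0.0022 for Cdh1 and -0.018 for Epcam. Some log2 fold changes changed sign under an alternative, and the cause was not tested. Not all of them were near 0. In marrow AML the main values were -0.61 for Cdh1 and -0.81 for Sftpc, whose direction is not settled. In marrow AML, Esrp1 was 0.015 with DESeq2 size factors, 0.26 with totals, 0.037 with DESeq2, 0.023 with no filter and 0.17 with the 5 CPM filter, Zeb1 was -0.055 with limma-voom, and Cldn7 was 0.022 without marrow control 2 and marrow AML 3. With totals, lung AML values were -0.0245 (Cdh1), -0.030 (Epcam) and -0.029 (Esrp1), and differences of effects were -0.30 (Cldn7) and -0.079 (F11r). The difference for Cldn7 was -0.11 with the 5 CPM filter and -0.32 without the 2 libraries. Leaving out 1 library gave, in marrow AML, -1.19 to 0.82 (Cldn7), -0.90 to 0.0076 (F11r), -2.15 to 1.02 (Cdh1), -0.12 to 0.37 (Zeb1), -2.30 to 2.13 (Esrp1) and -2.05 to 0.36 (Sftpc). In lung AML it gave -0.46 to 0.0099 (Cldn7), -0.11 to 0.19 (Cdh1), -0.044 to 0.16 (Epcam) and -0.10 to 0.21 (Esrp1), and for the difference -1.12 to 0.89 (Cldn7), -0.14 to 0.77 (F11r) and -0.97 to 2.20 (Cdh1). Depth limits Cldn4, Cldn7 and Marveld2 in marrow controls, with 0, 43 and 15 counts over the group.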

Other observations

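Cldn13, a claudin gene of rodents near Cldn4 and Cldn3 on chromosome 5 (134914249 to 134915526, GRCm38), ran opposite to them across the tissues. It was at 931, 1117 and 1103 CPM in marrow controls, 187, 42.0 and 9.11 CPM in marrow AML, and 0.174 to 3.12 CPM in the 6 lung libraries. It fell by 3.73 on the log2 scale in marrow AML (SE 0.87, edgeR adjusted p = 0.00526), with every AML library below every control, as for 27.5% of all genes tested. Klf1, an erythroid transcription factor, was at 827 to 841 CPM in marrow controls and 89.8 to 171 CPM in marrow AML (log2 fold change -2.75, edgeR adjusted p = 0.000217). The part of erythroid cells in the Cldn13 value was not tested.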
